A study of Mus musculus with 23 samples.

Results

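The Rab genes encode small GTPases of vesicle traffic. They were taken as the genes whose single platform symbol is Rab followed by a number, and 50 such genes were on the array. Each gene was represented by its probe set with the highest mean over the 23 arrays, and 43 of the 50 were measured, meaning a log2 value of at least 4 on at least 4 arrays. These 43 stood among 9198 genes tested. The 7 genes not measured were Rab17, Rab20, Rab25, Rab27a, Rab32, Rab37 and Rab38. A further 6 genes with a symbol that begins with a Rab name but that are not Rab genes (Rab11fip5, Rab26os, Rab3gap2, Rab3il1, Rab3ip and Rab5if) were left out.

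A Rab protein switches between a GTP-bound form, which sits on a membrane and recruits effectors such as tethers and motors, and a GDP-bound form, which a carrier protein extracts into the cytosol. Exchange factors load GTP and GTPase-activating proteins end the active state, and each Rab marks a step of traffic such as Golgi export, endosome fusion, recycling or regulated secretion. In neurons the Rab3 proteins sit on synaptic and secretory vesicles and bind the active zone protein RIM and the vesicle protein rabphilin.

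The series followed the prefrontal cortex of male C57BL/6 mice at postnatal weeks 2, 3, 4, 5 and 10, with 6, 4, 4, 5 and 4 arrays of 1 animal each, and asked how gene expression changes over postnatal maturation. No treatment or engineered allele was given for any group. Batch 2 held week 2 animals 1 and 2 and, of week 5, animals 2 and 4, and all other arrays were in batch 1. Number 2 of week 5 occurs in each batch, and both arrays were counted because nothing in the labels settles whether they came from 1 animal.

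The arrays were scanned on 7 days, and day 6 held the 4 arrays of week 3 and nothing else. Day 5 held the 4 arrays of week 4 and 1 of week 5, and weeks 2 and 10 shared only day 4, with 1 array each. The log2 signal of the beta-actin probe set at the 3 prime end minus that at the 5 prime end, a sign of RNA quality, ran from 0.90 to 1.51 at week 2, from 1.07 to 1.24 at week 3, from 1.50 to 2.28 at week 4 and from 1.43 to 1.78 at week 10. The mean log2 level of 5 astrocyte markers was 9.36 to 9.62 at week 2 and 9.04 to 9.16 at week 10, and that of 4 endothelial markers was 6.78 to 7.19 and 6.43 to 6.56, so both lists were lower at week 10 with no overlap. Neuronal markers (5 of the 6 listed were tested) had means of 10.63 to 10.96 and 10.58 to 11.25 at these ages, which overlapped. Markers of cortical layers had means of 6.77 to 7.95 (5 of 6 tested). Markers of the striatum, a neighbouring region, were also present, with means of 5 tested genes from 6.37 (week 5 batch 1 animal 2) to 9.99. The part of these measures in the results was not tested, except where a fit with the actin difference is given. In bulk tissue, fewer cells of a type and less RNA per cell cannot be told apart.

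Promoters of 4 genes are shown because these carry the main contrasts. Rab3a is the main Rab3 of synaptic vesicles, Rab3b was the member of that group that fell, and Rab10 and Rab8b both serve export from the Golgi but moved in opposite directions. The windows span 250 bases before to 50 bases after the start site in the RefSeq annotation of GRCm38.p6, and lie at chr8:70754453-70754752 (plus strand, the more upstream of 2 annotated starts) for Rab3a, chr4:108878820-108879119 (plus strand) for Rab3b, chr12:3309920-3310219 (minus strand) for Rab10 and chr9:66919656-66919955 (minus strand) for Rab8b. Each is printed 5′ to 3′ on the strand of the gene. Capitals mark matches to the motifs searched on both strands, which were the GC box (GGGCGG), the CCAAT box (CCAAT), the TATA box (TATAAA), the cyclic AMP response element (TGACGTCA) and the E-box (CACGTG).
Rab3a: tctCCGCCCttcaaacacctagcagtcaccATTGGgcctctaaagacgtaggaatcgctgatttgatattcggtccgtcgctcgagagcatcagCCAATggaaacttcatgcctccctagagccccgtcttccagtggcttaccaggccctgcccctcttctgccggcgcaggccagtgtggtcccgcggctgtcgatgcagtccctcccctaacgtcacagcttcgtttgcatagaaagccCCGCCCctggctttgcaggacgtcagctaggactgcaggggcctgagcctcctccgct
Rab3b: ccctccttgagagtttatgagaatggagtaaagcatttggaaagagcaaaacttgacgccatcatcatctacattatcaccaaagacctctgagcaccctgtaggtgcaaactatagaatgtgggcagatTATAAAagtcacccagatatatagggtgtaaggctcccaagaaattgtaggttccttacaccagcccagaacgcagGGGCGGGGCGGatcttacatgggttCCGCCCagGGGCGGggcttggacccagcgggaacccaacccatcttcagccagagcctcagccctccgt
Rab10: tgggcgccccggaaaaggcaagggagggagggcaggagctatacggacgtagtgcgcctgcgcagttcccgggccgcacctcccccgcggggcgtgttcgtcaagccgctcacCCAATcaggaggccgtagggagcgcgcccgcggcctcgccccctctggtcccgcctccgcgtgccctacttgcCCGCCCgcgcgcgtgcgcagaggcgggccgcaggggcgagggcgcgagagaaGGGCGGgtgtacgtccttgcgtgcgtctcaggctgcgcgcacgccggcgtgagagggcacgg
Rab8b: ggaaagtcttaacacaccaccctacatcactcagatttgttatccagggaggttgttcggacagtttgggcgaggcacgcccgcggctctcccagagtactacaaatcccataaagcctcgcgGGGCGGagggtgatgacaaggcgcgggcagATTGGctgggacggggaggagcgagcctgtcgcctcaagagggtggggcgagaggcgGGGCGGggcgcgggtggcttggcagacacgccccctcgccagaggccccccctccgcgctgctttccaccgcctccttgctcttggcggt

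The Rab3a window held 2 GC boxes and 2 CCAAT boxes, and that of Rab3b held 4 GC boxes, of which the first 2 shared 1 base, and a TATA box that began at position -120 from the start. Rab10 and Rab8b each had 2 GC boxes and 1 CCAAT box, although their levels moved in opposite directions between weeks 2 and 10. A promoter was listed for 37 of the 43 measured Rab genes. Of these, 28 (75.7%) held a GC box, against 35.9% of 27025 genes with a promoter, 20 (54.1%) held a CCAAT box against 10275 of the 27025, and 2 (5.41%) held a TATA box against 14.2%. The response element was in 1 Rab window (Rab5a) and the E-box in 4 (10.8%), against 1.85% and 7.24% of all promoters. The median window held 24 CpG pairs in the Rab genes and 7 in all genes. The 37 Rab genes had passed the signal filter, while the 27025 genes were taken whether or not they were measured. The sets are thus unlike, and the differences are not read as particular to the Rab genes. A match describes letters in the window and not a bound site.

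**Figure D1:**
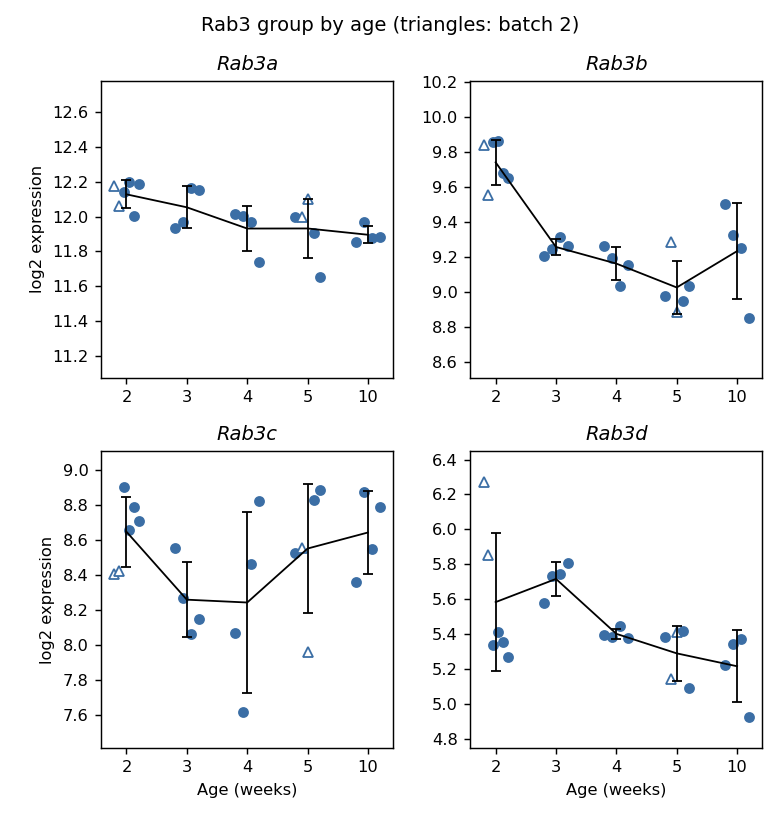
Log2 expression of the 4 Rab3 genes by age in weeks, 1 point per array, with the line at the mean and bars of 1 SD. Batch 2 arrays are open triangles, and Rab3b stands above all later animals at week 2, where its lowest animal is at 9.56.

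The Rab3 group had 4 measured members, of which Rab3b fell between weeks 2 and 10 and the other 3 were not called. A gene was called when its limma p, with Benjamini-Hochberg adjustment across every probe set tested, was under 0.05. At week 2 Rab3b, a Rab3 isoform of secretory vesicles, had a lowest, median and highest log2 level of 9.56, 9.76 and 9.87. It was at 9.21, 9.24, 9.31 and 9.26 at week 3, at 9.26, 9.20, 9.03 and 9.15 at week 4, at 8.97, 9.28, 8.89, 8.95 and 9.04 at week 5 and at 9.51, 9.33, 9.25 and 8.85 at week 10. Every later animal was below the lowest week 2 animal. The fitted change from week 2 to week 10 was -0.50 log2 (SE 0.11, 95% interval -0.73 to -0.28, adjusted p = 0.00291), a level 1.42-fold lower (SE is the standard error of the fitted change), and 95.3% of it was present by week 3. Rab3b was called under all 41 alternatives run for this comparison, with changes of -0.63 to -0.38.

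Rab3a binds RIM and rabphilin on synaptic vesicles. Its lowest, median and highest levels at week 2 were 12.00, 12.16 and 12.20. The week 3 animals were at 11.93, 11.97, 12.16 and 12.15, the week 4 animals at 12.01, 12.00, 11.97 and 11.74, the week 5 animals at 12.00, 12.00, 12.10, 11.91 and 11.65, and the week 10 animals at 11.86, 11.97, 11.88 and 11.88. Weeks 2 and 10 did not overlap, yet the fitted change of -0.20 log2 (95% interval -0.38 to -0.03) had an adjusted p of 0.108. It passed the threshold without a batch term (-0.23, adjusted p = 0.0474) and with the actin difference as a covariate (-0.25, adjusted p = 0.0494).

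Rab3c, a further vesicle-bound isoform, was at 8.41, 8.68 and 8.90 at week 2 (lowest, median and highest), at 8.56, 8.27, 8.06 and 8.15 at week 3 and at 8.36, 8.88, 8.55 and 8.79 at week 10. At week 4 its animals spread from 7.62 to 8.82 and at week 5 from 7.96 to 8.89, so every age overlapped week 2. The fitted change was -0.14 log2 by week 10 (95% interval -0.53 to 0.24), and -0.53 by week 3 (95% interval -0.91 to -0.14, adjusted p = 0.0552), which also missed the threshold. Without adjustment for batch, the means at weeks 2 and 10 were 8.65 and 8.64.

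Rab3d, known from secretory granules of exocrine and mast cells, was dim, with a mean of 5.45 over all arrays. At week 2 the batch 2 animals were at 6.27 and 5.85 and the others at 5.34, 5.41, 5.35 and 5.27. It was at 5.58 to 5.81 at week 3, 5.38 to 5.44 at week 4, 5.09 to 5.42 at week 5 and 4.92 to 5.37 at week 10. The change from week 2 to week 10 was -0.24 (95% interval -0.52 to 0.03). From week 2 to week 5 it was -0.79 in batch 2 (SE 0.15, adjusted p = 0.00197) and -0.05 in batch 1 (SE 0.12), and the adjusted p of that difference was 0.0564. Rab3d was called with a fixed scan day term replacing batch and the week 3 arrays left out (-0.48, adjusted p = 0.049).

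Set beside the other Rab genes, the Rab3 group had 0 higher and 1 lower of 4 genes between weeks 2 and 10, with a median change of -0.22, and the other 39 Rab genes had 3 higher and 3 lower with a median of -0.02. Over all genes the median was 0.01, and 7.12% were called higher and 11.4% lower. The mean of the 4 Rab3 genes minus that of the other 39, taken per animal, was -0.01 to 0.29 at week 2, -0.13 to -0.10 at week 3, -0.46 to -0.19 at week 4, -0.38 to -0.17 at week 5 and -0.32 to -0.02 at week 10. These values are not adjusted for batch. The highest at week 2, 0.29 and 0.10, were those of the batch 2 animals, and the batch 1 animals lay between -0.01 and 0.06. No week 10 array was in batch 2. The mean of the other 39 was 8.88 to 9.02 at week 2 and 8.89 to 8.98 at week 10, and that of the Rab3 group 8.95 to 9.17 and 8.61 to 8.88. Levels of different probe sets do not share a scale, so only the shift of this difference between ages is read, and 1 of the 4 genes was called on its own.

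**Figure D2:**
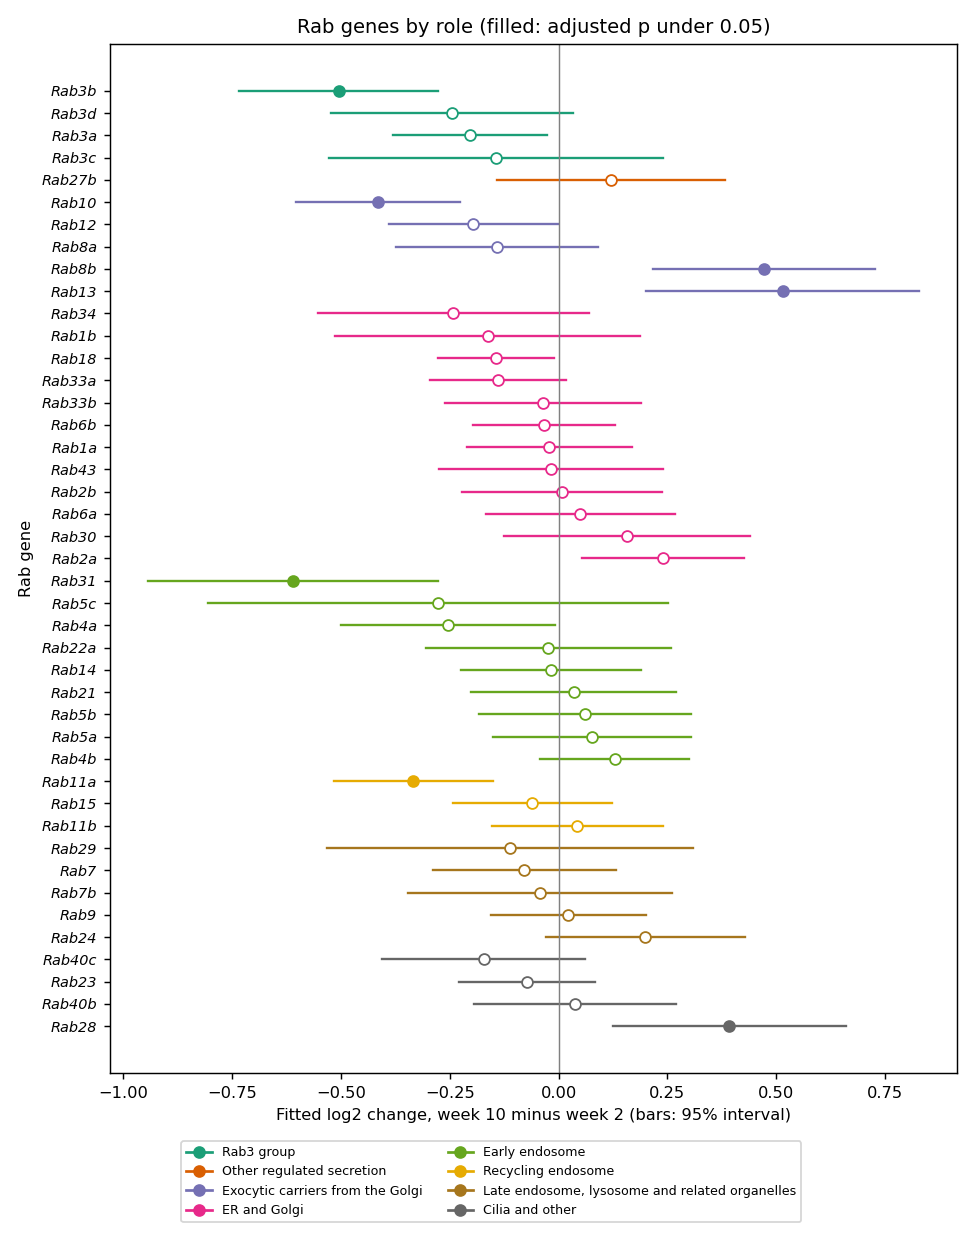
Fitted log2 change from week 2 to week 10 for the 43 measured Rab genes, grouped by role (colour), with 95% intervals and filled points where the adjusted p was under 0.05. All 4 Rab3 genes lie below 0, although the intervals of Rab3c and Rab3d cross it. Of the 43 Rab genes 16 lie above 0, and of all 9198 genes tested 4682 do. The exocytic carriers hold both Rab10 at -0.41 and Rab13 at 0.51.

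Of the 43 Rab genes, 7 were called between weeks 2 and 10, of which 3 rose and 4 fell, against 7.12% and 11.4% of all genes. The counts by role that follow stand against the same shares and are not read as particular to a role. The median size of a change was 0.14 log2 in the Rab genes and 0.16 in all genes. The animals of the ages did not overlap for 4 Rab genes, Rab3a, Rab3b, Rab10 and Rab11a, against 15.8% of all genes. Rab10 and Rab11a were named by the rule for genes called with no overlap, while Rab31, Rab8b, Rab13 and Rab28 were named after their values were seen, because they were the other called members.

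The exocytic carriers from the Golgi had 5 measured members, 2 higher (Rab8b and Rab13), 1 lower (Rab10) and 2 not called (Rab8a at -0.14 and Rab12 at -0.20). Rab10 carries membrane to the cell surface, including vesicles for axon growth. Its lowest, median and highest week 2 levels were 10.63, 10.83 and 10.94, and its week 10 animals were at 10.49, 10.26, 10.45 and 10.52. The fitted change was -0.41 (SE 0.09, adjusted p = 0.00307). Both further probe sets of Rab10 had the same direction but were not called, at -0.27 and -0.23, and the second, which has the largest variance, ends the call where it stands for the gene (adjusted p = 0.421).

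Rab8b, of the Rab8 pair that sends Golgi vesicles to the plasma membrane and cilia, was at 8.41, 8.51 and 8.70 at week 2 (lowest, median and highest) and at 9.28, 8.57, 8.96 and 9.01 at week 10. Animal 6 of week 10, at 8.57, lay within the week 2 range and the other 3 above it. The change was 0.47 (SE 0.12, adjusted p = 0.0107), and 0.36 (adjusted p = 0.0509) without week 10 animal 1. From week 2 to week 5 it was 0.01 (SE 0.13) in batch 1 and 0.45 (SE 0.17) in batch 2, with an adjusted p of 0.357 for the difference.

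Rab13, which acts in traffic to cell junctions, was dim, at 5.00, 5.45 and 5.86 at week 2 and at 6.19, 6.10, 5.59 and 6.04 at week 10. Its mean was highest at week 4, where the animals lay from 6.06 to 6.48. The change from week 2 to week 10 was 0.51 (SE 0.15, adjusted p = 0.0221). The call ended without week 2 animal 4 (0.39, adjusted p = 0.0639), without week 10 animal 1, 6 or 8 (0.45, 0.47 and 0.49), without the arrays of scan day 1 (0.44, adjusted p = 0.0856), with array weights (0.36, adjusted p = 0.106) and with a fixed scan day term (0.48, adjusted p = 0.257).

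Among 9 early endosome genes, which govern the sorting of material just taken in, Rab31 fell and 8 were not called (Rab14, Rab21, Rab22a, Rab4a, Rab4b, Rab5a, Rab5b and Rab5c, from -0.28 for Rab5c to 0.13 for Rab4b). Rab31, which serves traffic between the Golgi and endosomes, was at 7.94, 8.40 and 8.79 at week 2 (lowest, median and highest) and at 7.99, 7.78, 7.64 and 7.44 at week 10. Week 2 animal 6, at 7.94, and week 10 animal 1, at 7.99, were the points that overlapped. The change was -0.61 (SE 0.16, adjusted p = 0.0113), the largest fitted in size among the 43. It was -0.30 (adjusted p = 0.373) with a fixed scan day term and -0.45 (adjusted p = 0.0843) with animal number as a block beside batch. From week 2 to week 5 the change was -0.59 in batch 1 (SE 0.17, adjusted p = 0.0305) and -0.01 in batch 2 (SE 0.22), with an adjusted p of 0.336 for the difference.

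The recycling endosome genes numbered 3, with Rab11a lower, Rab15 at -0.06 and Rab11b at 0.04. Rab11a returns receptors to the cell surface. It was at 11.06, 11.16 and 11.27 at week 2 (lowest, median and highest) and at 10.87, 10.80, 10.87 and 10.74 at week 10, with no overlap. The change was -0.33 (SE 0.09, adjusted p = 0.0114), and a further probe set of the gene fell by 0.56. With a fixed scan day term the change was -0.36 and the adjusted p 0.115. The call also ended with animal number as a block beside batch (-0.35, adjusted p = 0.0629).

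Of 4 genes grouped as cilia and other, Rab28, a Rab of photoreceptors and cilia, rose, and Rab23, Rab40b and Rab40c lay between -0.17 and 0.04. Rab28 was at 9.13, 9.37 and 9.62 at week 2 (lowest, median and highest) and at 10.18, 9.59, 9.75 and 9.64 at week 10. Animal 6 of week 10, at 9.59, lay within the week 2 range, and animal 1, at 10.18, stood above all arrays. The change was 0.39 (SE 0.13, adjusted p = 0.0401), and 0.26 (adjusted p = 0.167) without week 10 animal 1, an array of chip lot 1. The call ended under 14 of 41 alternatives, with changes of 0.26 to 0.45. These were also leaving out any 1 of week 2 animals 1, 2, 5 and 6, week 5 batch 2 animal 4 and week 10 animal 7, or the arrays of scan day 1 (adjusted p = 0.181) or the 2 week 2 arrays of low striatal markers (adjusted p = 0.109). The others were week 2 animal 5 placed in batch 2 (adjusted p = 0.0605), the actin covariate (adjusted p = 0.0957), array weights (adjusted p = 0.0738), animal number as a block and no filter on dim probe sets. A further probe set of Rab28 rose by 0.53.

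None of the 12 genes of the endoplasmic reticulum and Golgi was called between weeks 2 and 10 (Rab18, Rab1a, Rab1b, Rab2a, Rab2b, Rab30, Rab33a, Rab33b, Rab34, Rab43, Rab6a and Rab6b). Their changes lay between -0.24 and 0.24, and 2 had an unadjusted p under 0.05, as did 2992 of all 9198 genes. Rab6a and Rab6b, which act in transport within and back through the Golgi, were at 0.05 (95% interval -0.17 to 0.27) and -0.03 (95% interval -0.20 to 0.13). The late endosome and lysosome genes (Rab7, Rab7b, Rab9, Rab24 and Rab29) lay between -0.11 and 0.20, with 0 of 5 called and 0 with an unadjusted p under 0.05. Rab29 reached log2 4 on 12 arrays only. Rab27b, a Rab of regulated secretion, was at 0.12 (95% interval -0.14 to 0.38) and was not called.

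**Figure D3:**
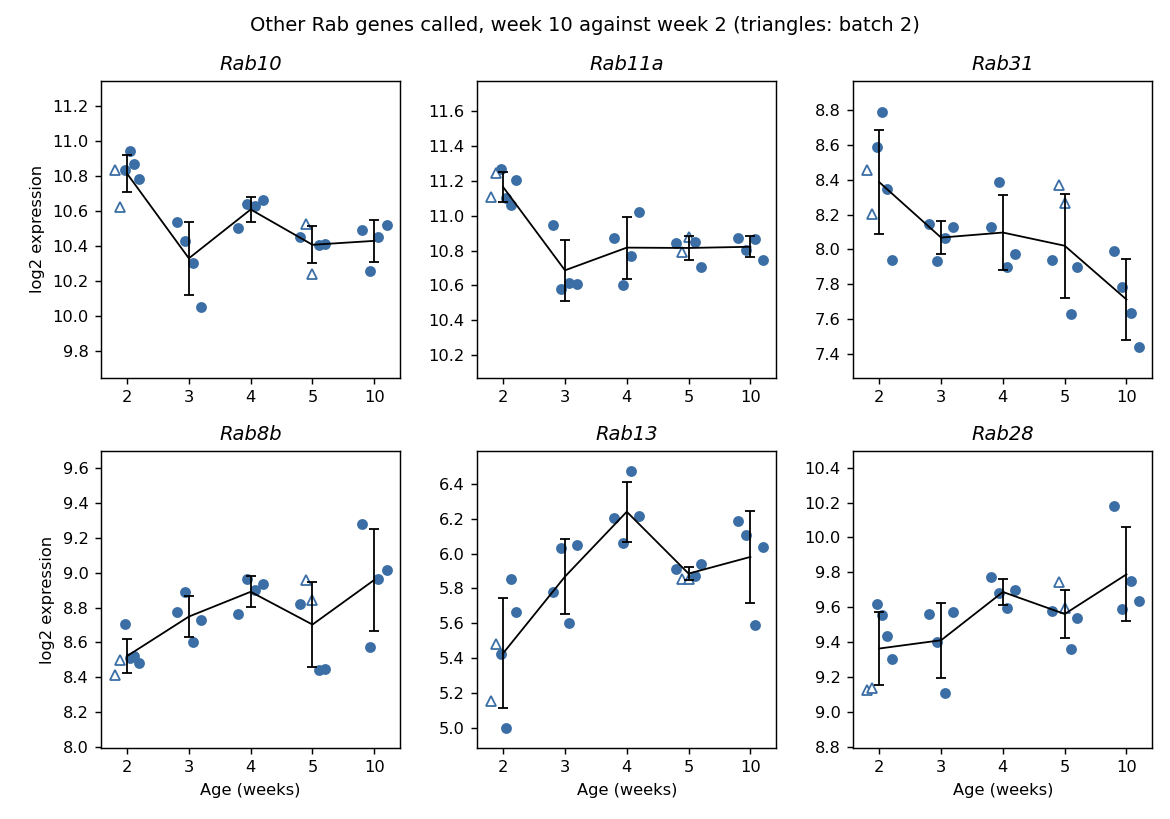
Log2 expression of the 6 other Rab genes called between weeks 2 and 10, by age in weeks, 1 point per array with the mean and 1 SD and batch 2 as open triangles. Rab10 and Rab11a drop at week 3, while Rab31 has its lowest mean at week 10 (7.71).

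Scan day 4 held week 2 animal 6 and week 10 animal 8. Their difference had the sign of the fitted change for 34 of the 43 Rab genes, the 7 called ones among them, and both arrays are part of that fit. Agreement of sign is thus partly built in and is not read as support for the calls. The share of all genes with the same sign is not given. Rab3b was 9.65 and 8.85, Rab8b 8.48 and 9.01, and Rab11a 11.21 and 10.74 in these arrays. The comparison holds 1 array per age and has no test.

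Between weeks 2 and 3, 6 Rab genes were called, 5 lower and 1 higher, against 9.61% and 5.63% of all genes. Rab3b (-0.48, SE 0.11, adjusted p = 0.00545), Rab10 (-0.51, SE 0.09, adjusted p = 0.000959) and Rab11a (-0.47, SE 0.09, adjusted p = 0.00138) fell, and so did Rab14 (-0.34, SE 0.10, adjusted p = 0.0234) and Rab18 (-0.34, SE 0.06, adjusted p = 0.0015). The means of 3 marker lists also parted with no overlap between these ages. Myelin and oligodendrocyte markers (4 of 5 tested) ran from 10.64 to 11.66 at week 2 and from 11.71 to 11.95 at week 3, microglial markers (5 of 5) from 8.46 to 8.66 and from 8.69 to 8.87, and endothelial markers (4 of 4) from 6.78 to 7.19 and from 6.55 to 6.75. Rab14 acts between the Golgi and endosomes, and Rab18, named after its values were seen, acts at lipid droplets and the endoplasmic reticulum. At week 3 the Rab10 animals were at 10.54, 10.43, 10.30 and 10.05, and those of Rab11a at 10.95, 10.58, 10.62 and 10.61, all below week 2. Rab10 then lay from 10.50 to 10.66 at week 4 and from 10.24 to 10.53 at week 5, and Rab11a from 10.60 to 11.02 and from 10.71 to 10.88. Both genes thus stood below their week 2 median at every later age in each animal. Rab18 had a week 2 range of 10.50 to 10.68 and week 3 values of 10.31, 10.23, 10.24 and 10.42, with no overlap. Its week 10 animals were at 10.46, 10.56, 10.45 and 10.51, and the change from week 2 was then -0.14 (95% interval -0.28 to -0.01) and not called. Rab14 had 11.80 to 12.20 at week 2, 11.54, 11.70, 11.71 and 11.78 at week 3 and -0.02 as its change by week 10. The Rab14 call at week 3 ended under 9 of 39 alternatives, with changes of -0.34 to -0.14. These were leaving out week 2 animal 3 or 4 or week 3 animal 2 (adjusted p = 0.0696, 0.0562 and 0.073), no batch term, the actin covariate, the probe set of largest variance, either random block for scan day, and days 6 and 7 as 1 term. Its further probe sets did not follow: 1 rose by 0.83 at week 3 and the other 4 were not called. The Rab18 call ended under 2 of 39, the probe set of largest variance (-0.39, adjusted p = 0.267) and the random scan day block that replaced the batch term.

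Every week 3 array was scanned on day 6, so scan day and age cannot be told apart at that age. With a random block for scan day replacing the batch term, 0 of the 43 genes were called between weeks 2 and 3, although the sizes of most changes moved little. Rab3b was at -0.51 (adjusted p = 0.086), Rab10 at -0.49 (adjusted p = 0.0664), Rab11a at -0.48 (adjusted p = 0.0681) and Rab18 at -0.34 (adjusted p = 0.0684). Rab14 was at -0.29 (adjusted p = 0.297) and Rab22a at 0.52 (adjusted p = 0.253). In the same setting 8 were called between weeks 2 and 10. The share of all genes called in this setting is not given, so these counts are not read as particular to the Rab genes.

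Rab22a, an early endosome Rab of sorting and recycling, was the 1 gene higher at week 3, and its values parted by scan day. On days 6 and 7, the 7 arrays lay between 8.31 and 8.80, and on days 1 to 5 the 16 arrays lay between 7.57 and 7.94. The high arrays were the 4 of week 3 (8.31, 8.40, 8.68 and 8.63), week 2 animals 1 and 2 (8.80 and 8.45) and week 5 batch 2 animal 4 (8.32). The same 7 arrays stood apart from the other 16 in the actin difference (0.90 to 1.24 against 1.27 to 2.28) and in the mean of the cortical layer markers (7.62 to 7.95 against 6.77 to 7.30). The fitted changes were 0.71 from week 2 to week 3 (SE 0.14, adjusted p = 0.0015) and -0.84 from week 3 to week 4 (SE 0.14, adjusted p = 0.000414). When a single term for days 6 and 7 replaced the batch term they were -0.03 (adjusted p = 0.899) and -0.03 (adjusted p = 0.976). That term was chosen after the data were seen and groups the 7 high arrays, so the small remainder follows from the choice. With the actin covariate the fitted changes were 0.67 (adjusted p = 0.0037) and -0.62 (adjusted p = 0.469), and the layer markers were not fitted.

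**Figure D4:**
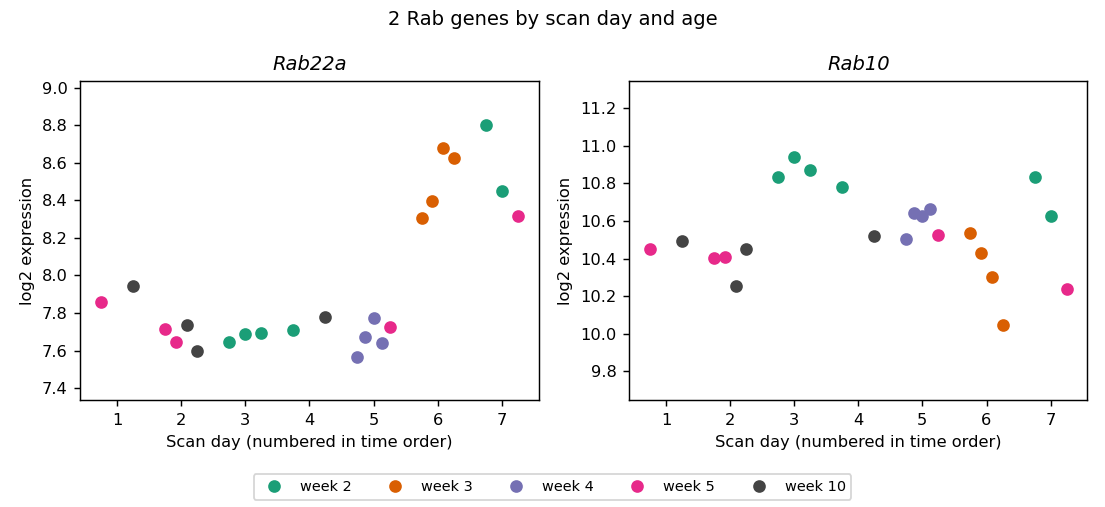
Log2 expression of Rab22a and Rab10 by scan day, coloured by age, 1 point per array. Rab22a is above 8.3 on days 6 and 7 at every age scanned there, whereas Rab10 at week 2 is 10.63 or more on days 3, 4 and 7.

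Between weeks 3 and 4, Rab22a and Rab12 fell and Rab4b rose, 2 lower and 1 higher of 43 against 4.26% and 5.47% of all genes. Rab12, which directs transferrin receptor to lysosomes, was at 9.17, 9.09, 9.25 and 9.41 at week 3 and at 8.83, 8.79, 8.91 and 8.91 at week 4 (-0.37, SE 0.10, adjusted p = 0.0156). Its listing with the exocytic carriers is a grouping that gives each gene 1 role only. Rab4b, a Rab of fast recycling, was at 8.82, 8.73, 9.01 and 9.01 and at week 4 its 4 animals had a mean of 9.18 (0.29, SE 0.09, adjusted p = 0.0319). The actin difference was 1.07 to 1.24 at week 3 and 1.50 to 2.28 at week 4. The mean of the cortical layer markers was 7.62 to 7.95 and 6.94 to 7.23 at these ages, and that of the oligodendrocyte precursor markers (2 of 2 tested) 7.62 to 7.85 and 6.91 to 7.37, so both lists were lower at week 4 with no overlap. With the actin covariate 0 of the 43 were called, and Rab22a was at -0.62, Rab12 at -0.30 and Rab4b at 0.13. A random scan day block replacing the batch term also left 0 called, at -0.81, -0.34 and 0.33 for these genes. The share of all genes called in either fit is not given. Leaving out week 3 animal 2 or 3 or week 4 animal 1 or 3 ended the call of Rab4b, and leaving out week 3 animal 6 or week 4 animal 2 that of Rab12.

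Between weeks 4 and 5, limma called 0 Rab genes, against 0.0109% of all genes called higher and 0.0652% lower. An unadjusted p under 0.05 was found for 5 Rab genes and for 1103 of all 9198 genes. With array weights 3 Rab genes were called, and the share of all genes called in that setting is not given. Between weeks 5 and 10, 0 Rab genes were called under any alternative run, against 0.0217% higher and 0.0217% lower. At an unadjusted p under 0.05 there were 508 of all 9198 genes and 2 Rab genes. Of these 2, named after their values were seen, Rab33a, which is linked to Golgi and axonal vesicle traffic, was at -0.27 (adjusted p = 0.478) and Rab8b at 0.30 (adjusted p = 0.899) between weeks 5 and 10.

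**Figure D5:**
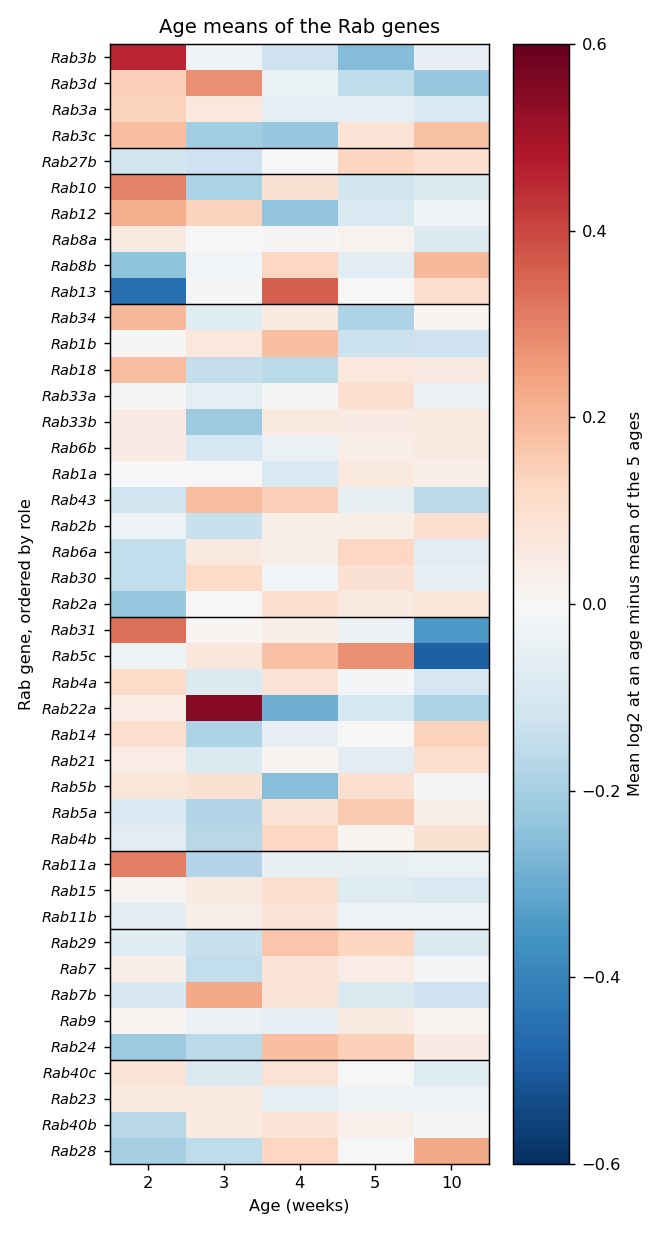
Mean log2 of each of the 43 Rab genes at each age minus the mean of its 5 age means, with lines between the roles. Red is above and blue below, and Rab22a at week 3 and Rab3b at week 2 are among the strongest red cells.

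Over the 5 ages together, the moderated F-test called 13 of 43 Rab genes, against 31% of all genes. These were Rab3b, Rab3d, Rab22a, Rab31, Rab18, Rab2a, Rab33a, Rab10, Rab12, Rab13, Rab8b, Rab24 and Rab11a, that is 2 of 4 in the Rab3 group and 11 of 39 others. The range of the age means had a median of 0.31 log2 in the Rab genes and in all genes, and ran from 0.10 (Rab9) to 0.84 (Rab22a). The highest mean lay at week 2 for 12 genes, at week 4 for 12, at week 5 for 8, at week 10 for 6 and at week 3 for 5. Of the 7 genes called between weeks 2 and 10, Rab11a and Rab10 had passed their week 10 change by week 3 (140% and 124%), while Rab31 had reached 41.8% and Rab28 3.76%.

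Within batches, week 5 could be set against week 2 without crossing them, but the scan days differed. In batch 1, week 2 was scanned on days 3 and 4 and week 5 on days 1 and 2, so age and scan day cannot be told apart there. In batch 2, both week 2 arrays were scanned on day 7, and week 5 animals 2 and 4 on days 5 and 7. The part of scan day in these changes was not tested. In batch 1, 4 Rab genes were called (Rab3b, Rab10, Rab11a and Rab31), against 10.4% of all genes, and in batch 2, 5 (Rab3b, Rab3d, Rab22a, Rab12 and Rab24), against 10.8%. Rab3b fell in both, by 0.78 (SE 0.12, adjusted p = 0.000545) and by 0.61 (SE 0.16, adjusted p = 0.0199). Rab10 was at -0.43 and -0.35 and Rab11a at -0.36 and -0.34 in batches 1 and 2, and both passed the threshold in batch 1 and missed it in batch 2. The 2 batches differed in this change for 0 of 43 Rab genes (9 at an unadjusted p under 0.05) and for 1.73% of all genes, and 31 of 43 had the same sign. The shares of all genes with the same sign or with an unadjusted p under 0.05 are not given, so these 2 counts are not read as particular to the Rab genes. The batches themselves differed for 5 Rab genes, Rab22a and Rab5b higher in batch 2 and Rab40b, Rab2b and Rab33a lower, against 4.1% of all genes.

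The partners of the Rab genes were described with 5 lists, and their counts between weeks 2 and 10 stand against 7.12% of all genes called higher and 11.4% lower. Of the Rab3 effectors, 2 of 6 were tested and neither was called between weeks 2 and 10. Rims2, an active zone scaffold, was at 0.12 (SE 0.12) and Rph3a, the rabphilin of synaptic vesicles, at -0.36 (SE 0.37). At week 3 against week 2, Rims2 fell by 0.39 (SE 0.12, adjusted p = 0.0385) and Rph3a rose by 1.24 (SE 0.37, adjusted p = 0.026). Both turned back by week 4 (0.53, adjusted p = 0.00982, and -1.73, adjusted p = 0.005). Of all genes, 9.61% were called lower and 5.63% higher at week 3, and 5.47% higher and 4.26% lower at week 4. All week 3 arrays were scanned on day 6, so age and scan day cannot be told apart in these steps. Alternatives are not given for the partner genes.

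Of 6 carriers and prenylation genes tested, Rabif, a chaperone of nucleotide-free Rab proteins, fell, with a fitted change, adjusted for batch, of -0.46 (SE 0.10, adjusted p = 0.0031). Its unadjusted means at these ages were 7.81 ± 0.24 (SD, n = 6) and 7.46 ± 0.13 (SD, n = 4). The other 5, which included Gdi2, the carrier that extracts Rab proteins from membranes, lay between -0.06 and 0.01. Of 16 exchange factors, 2 rose and 0 fell. Rabgef1, an activator of Rab5, rose by 0.54 (SE 0.15, adjusted p = 0.0205) and Dennd5a, a DENN-domain protein, by 0.44 (SE 0.10, adjusted p = 0.00532), while the Rab5 genes were at 0.08, 0.06 and -0.28.

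Among 18 GTPase-activating proteins, 1 fell and 2 rose. Tbc1d13, which acts on Rab35, fell by 0.66 in the fit (SE 0.13, adjusted p = 0.00135), with unadjusted means of 7.20 ± 0.16 (SD, n = 6) and 6.55 ± 0.22 (SD, n = 4). Tbc1d22a rose by 0.37 (SE 0.11, adjusted p = 0.0253) and Tbc1d1, a regulator of glucose transporter vesicles, by 0.33 (SE 0.09, adjusted p = 0.0193).

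Of 18 other effectors, 3 rose and 3 fell. The largest change was that of Erc1, an active zone protein that binds Rab6, which fell by 1.23 in the fit (SE 0.10, adjusted p = 4.23e-08), and 0.70 of this was present by week 3. The unadjusted means of Erc1 were 8.39 ± 0.25 (SD, n = 6) and 7.07 ± 0.08 (SD, n = 4). Rab6a and Rab6b, its partners, were at 0.05 and -0.03. Exoc6, the exocyst subunit that binds Rab11, fell by 0.36 (SE 0.09, adjusted p = 0.00654), and Myo5a, a motor recruited by several Rab proteins, rose by 0.43 (SE 0.12, adjusted p = 0.013). Rilpl1, an effector of the Rab8 and Rab10 family, rose by 0.41 (SE 0.12, adjusted p = 0.0221). The remaining called effectors were Rilpl2, lower, and Uso1, higher.

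Other probe sets bear on how firmly a member is read. Of the 43 genes, 23 had more than 1 tested probe set. Of 5 further probe sets of the 7 genes called between weeks 2 and 10, all 5 had the same direction and 2 were called. Among 32 further probe sets of the genes not called there, 1 was called, for Rab34, a Golgi and cilia Rab named after its values were seen, at -0.63 (SE 0.19, adjusted p = 0.0244) against -0.24 for the probe set that stands for the gene. At week 3 against week 2, further probe sets of Rab27b (0.46) and Rab7b (0.84, mean level 3.87) were called though their genes were not. At week 4 against week 3 so were those of Rab27b (-0.81), Rab7b (-0.50) and Rab14 (1.24, mean level 4.40, and -1.12). A further probe set each of Rab10, Rab11a and Rab22a was called at week 3 in the direction of the gene.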

How the data were processed

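Values were used as deposited. They were log2 expression values of 22690 Affymetrix MOE430A probe sets on 23 arrays, made by the authors with GCRMA per the submitters' processing notes (version not given), a method that adjusts background by probe affinity, normalises quantiles and summarises each probe set. No column belonged to no sample (0). Age and batch came from the titles, and scan day from the scanner record. For week 2 animal 5 the title and the description gave different batches, and the title was followed. Nothing in the labels shows more than 1 animal per array. Arrays hold no counts, and precision rests on how many there were.

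A probe set was tested when it reached log2 4 on at least 4 arrays (16103 did). The platform table gave 1 symbol for 20393 probe sets, several for 691 and none for 1606, and 20364 of those with 1 symbol were found by identifier in the mouse annotation GRCm38. The tool was limma 3.58.1 under R 4.3.3, with lmFit, eBayes and two-sided tests. Its model had 1 mean for each age plus a batch term, and Benjamini-Hochberg adjustment ran across every probe set tested. Scan day was also fitted as a random block (duplicateCorrelation, correlation 0.323 in place of batch) and as a fixed term without week 3. The fit was tested on simulated data. Promoters came from the RefSeq annotation.

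The genes named were all Rab3 members, other members called between weeks 2 and 10 whose animals did not overlap, up to 3 each way called between neighbouring ages, and up to 4 called members of each partner list (the 2 of highest mean where none was called). The members, the lists and the rule were chosen with earlier results of these data known. Of the alternatives, 15 were set with the design beside leaving out each array in turn, and 3 (days 6 and 7 as 1 term, without week 3, and without the 2 week 2 arrays of low striatal markers) were chosen after seeing the data.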

Additional observations from a re-analysis of the deposited data

Results flagged for a closer look

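Among 75 groups of 4 to 6 animals of the named Rab genes, 3 held a sample set apart from the rest by a gap that is large for the group's range, and chance sets about 1 group in 20 apart this way. Rab3a in week 4 animal 6 was at 11.74, while the other 3 lay between 11.97 and 12.01. Rab11a in week 3 animal 2 was at 10.95, and the others lay between 10.58 and 10.62. In the same array the choroid plexus marker (1 of 2 listed was tested) was at 7.20, against 4.22 to 4.85 in the other 3, and its part in the value was not tested. Rab8b in week 2 animal 3 was at 8.70, and the others lay between 8.41 and 8.52.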

How the results depend on the processing

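Counts of called Rab genes are given against the reported count. The share of all genes called under each alternative is not given, so a change of count is not read as particular to the Rab genes. Between weeks 2 and 10 (7), the count was 4 with the replicate block on animal number and 4 to 8 when each array was left out, the 4 being without week 10 animal 1. Leaving out that array, of chip lot 1, ended the calls of Rab8b, Rab13 and Rab28, the genes that rose. The split of 3 higher and 4 lower became 2 and 7 with the actin covariate. Between weeks 2 and 3 (6), it was 0 with a random block for scan day replacing batch, 11 with array weights and 5 to 8 leaving out an array. Between weeks 3 and 4 (3), it was 1 with the replicate block, 0 with scan day as a random block replacing or beside batch, 0 with the actin covariate, 0 with days 6 and 7 as 1 term, 5 (3 higher, 2 lower) with each array centred on its median, which moved the median of all genes to 0.117, 9 with array weights, 6 with the probe set of largest variance and 2 to 5 leaving out an array. Between weeks 4 and 5 (0), it was 3 with array weights and 0 to 1 leaving out an array, the 1 being without week 4 animal 6. Over all ages (13), it was 7 with the replicate block, 5 and 7 with the scan day block replacing and beside batch, and 21 with array weights. The cause was not tested. The one change whose sign reversed was that of Rab22a between weeks 2 and 3, at -0.034 with days 6 and 7 as 1 term. It was not called there (adjusted p = 0.899), so no fall is read from it. Animal numbers recur across ages with no label that ties them, and 1 of 23 arrays correlated best with its own number, so the number was not taken to pair animals (median residual correlation -0.12 for the same number and 0.003 for other numbers). Comparisons with week 3 could not be fitted with scan day as a fixed term. Dim genes such as Rab29, Rab7b and Rab3d are limited by signal over background.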
